A study of Mus musculus with 4 samples.

Results

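The purinergic genes described here are 10 of the 24346 genes measured in *in vitro* MDSCs, listed by symbol, by a rule that uses no measured value. The list was written with earlier results of these data known. Of these, *Entpd1*, *Nt5e*, *Ada* and *Pnp* encode enzymes that act in forming adenosine or in breaking down adenosine and inosine. *Adora2a*, *Adora2b* and *Adora3* encode adenosine receptors, and *P2rx4*, *P2rx7* and *P2ry2* encode receptors for ATP. All 10 were found in the tables and all 10 passed the filter on low values. MDSCs are immature myeloid cells that suppress T cells, and here they were grown from BM cells of female C57BL/6J mice aged 6 to 8 weeks. Both groups received 40 ng/ml GM-CSF for 4 days, and the groups differ in G-CSF, which was absent in Control (2 libraries) and added at 5 ng/ml in G-CSF (2 libraries). The cells were sequenced as whole cultures without sorting, so each library is a mixture of the myeloid cells that the culture yields.

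Cells that are stressed or dying release ATP, which acts on P2X channels and P2Y receptors and promotes inflammation. On the cell surface, CD39 (the product of *Entpd1*) removes phosphates from ATP and ADP to leave AMP, and CD73 (*Nt5e*) turns AMP into adenosine. Adenosine binds receptors that raise or lower cAMP and, through the product of *Adora2a*, restrains T cells, which is why CD39 and CD73 are followed on MDSCs. Adenosine deaminase (*Ada*) converts adenosine to inosine, and purine nucleoside phosphorylase (*Pnp*) splits inosine and guanosine into base and sugar phosphate.

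Values are FPKM, which correct read numbers for transcript length and library size, so they can be compared between genes. The libraries held an estimated 13.4 and 14.25 M reads in Control and 12.45 and 15.7 M with G-CSF, and each of the 10 genes had at least 56 estimated reads in every library. Differences, with their standard errors (SE), are log2 fold changes of FPKM + 0.1, G-CSF over Control, from limma over the 11966 genes that passed the filter, with Benjamini-Hochberg adjusted p-values. The labels of extraction name liver, but the liver genes *Alb*, *Apoa1*, *Ttr* and *Fgb* were listed at 0 in every library and the 7 liver genes summed to at most 1.39 FPKM, whereas the myeloid gene *Itgam* stood between 395 and 520 FPKM.

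With G-CSF, the transcripts of the ectoenzyme genes *Entpd1* and *Nt5e* were lower and that of adenosine deaminase was higher. *Entpd1* stood at 0.619 and *Nt5e* at 0.623 of their Control means, while *Ada* stood at 2.0 times its Control mean. Outside the set, other surface enzymes differed in direction. *Cd38*, a source of adenosine through AMP, on which CD73 acts, was higher (log2 fold change 0.59, adjusted p = 0.00825, limma). *Bst1*, of the same family as *Cd38*, was lower (-0.47, adjusted p = 0.00539, limma). *Acpp*, more abundant than *Nt5e* and added after its values were seen, did not pass (-0.23, adjusted p = 0.229, limma). It passed as lower with the replicate number as a block (adjusted p = 0.00949, limma). Of the 10 genes, 6 passed an adjusted p of 0.05 (5 lower and 1 higher), against 24.1% of all genes tested (11.5% lower and 12.6% higher). No gene of the 10 passed a fold change over 2 in addition, which 1.43% of all genes did. *Ada*, with a log2 fold change of 0.99, lay just under that limit, and passed it in a count-based fit of the estimated reads (limma voom, 1.01). The median log2 fold change of the 10 genes was -0.36, and that of all genes tested was 0.001. In 9 of the 10, the values of the groups did not overlap, 7 with G-CSF below and 2 with G-CSF above, against 66.2% of all genes tested (32.6% below and 33.6% above). Because the 10 genes were listed with earlier results known, these shares describe the list and test nothing. Of 77 other pathway genes tested, 27.3% passed an adjusted p of 0.05.

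**Figure D1:**
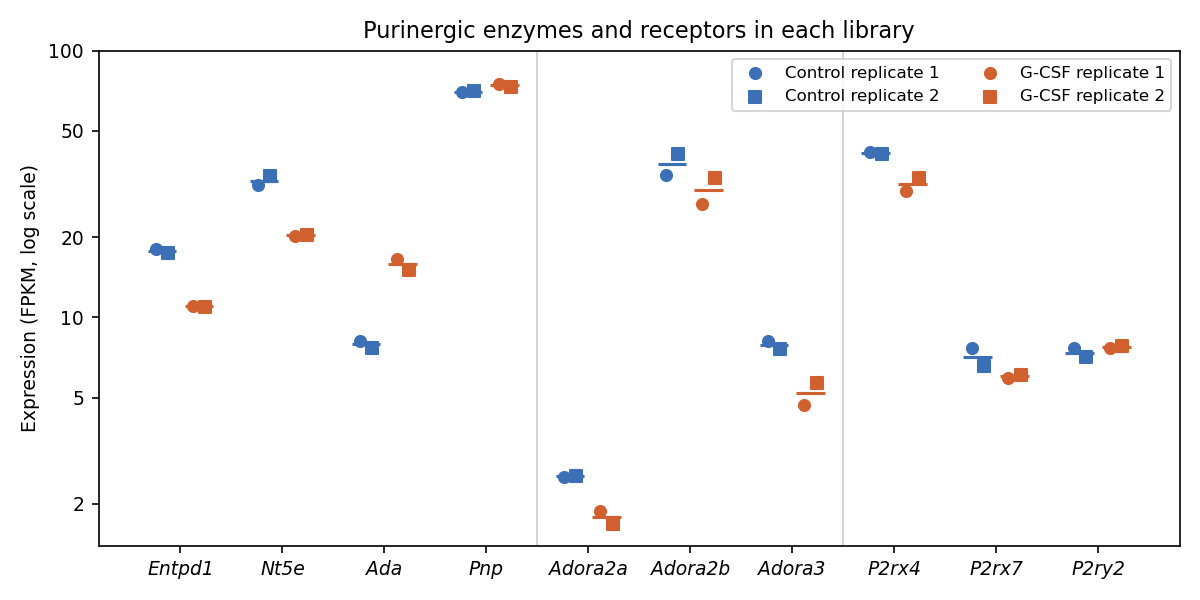
FPKM (log scale) of the 10 purinergic genes in each of the 4 libraries, with circles for replicate 1, squares for replicate 2 and a short line at each group mean. From left to right are the enzymes, the adenosine receptors and the ATP receptors. *Pnp* is highest at 70.17 to 74.97 FPKM and *Adora2a* lowest at 1.68 to 2.53 FPKM, and the groups overlap only in *P2ry2*.

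**Figure D2:**
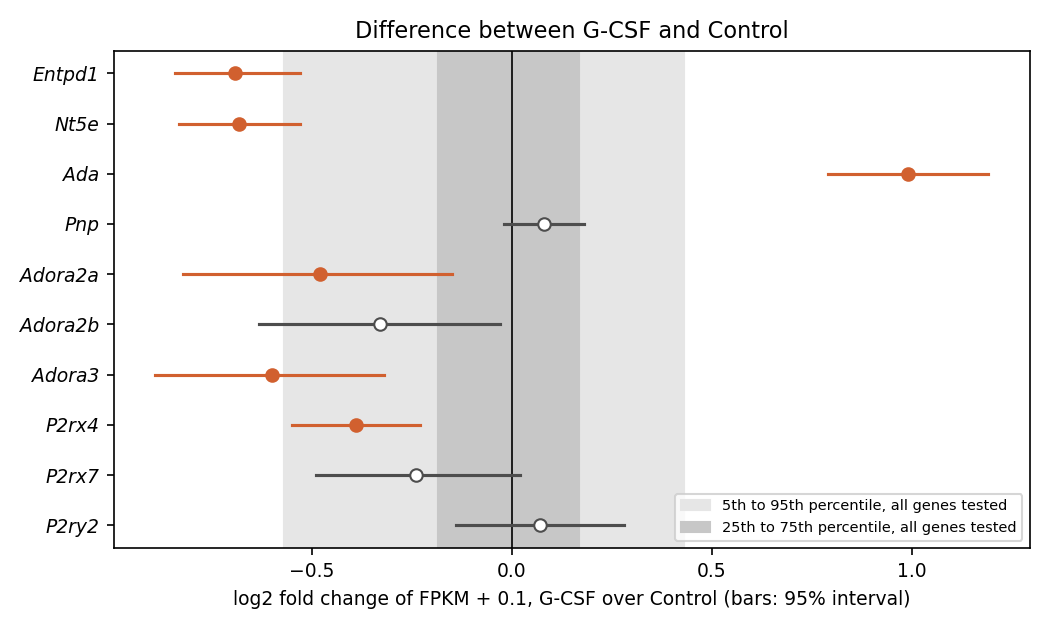
Log2 fold change of FPKM + 0.1 (G-CSF over Control) of each gene with its 95% interval from limma, filled orange where the adjusted p was under 0.05 and open where it was not. The grey bands hold the middle of all 11966 genes tested, and *Ada* (0.99), *Entpd1* (-0.69), *Nt5e* (-0.68) and *Adora3* (-0.60) lie outside the wider band, which runs from -0.57 to 0.43.

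The stretches just upstream of the genes that changed are shown because these genes moved in the same comparison and because their starts differ in composition, from 72.0% G and C at *Nt5e* and 67.2% at *Ada* to 47.2% at the second *Entpd1* start (median of all windows 52.4%). RefSeq (GRCm38.p6) gave start sites for 9 of the 10 genes, all but *Adora2a*, which was not searched for motifs. These gave 12 windows of 250 bases, of which some share sequence. Those of *Ada*, *Entpd1*, *Adora3* and *P2rx4* hold no annotated exon on the same strand and are printed 5′ to 3′ on the strand of the gene, with motif matches in capitals. The *Nt5e* window lies within an exon of a longer annotated transcript and is not printed.
*Ada* (chr2:163750240-163750489, minus strand): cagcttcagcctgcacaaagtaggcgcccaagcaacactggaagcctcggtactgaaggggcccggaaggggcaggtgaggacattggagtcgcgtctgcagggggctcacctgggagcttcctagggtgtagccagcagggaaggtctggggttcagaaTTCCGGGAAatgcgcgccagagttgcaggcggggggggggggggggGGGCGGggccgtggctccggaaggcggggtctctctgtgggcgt
*Entpd1*, first start (chr19:40612116-40612365, plus strand): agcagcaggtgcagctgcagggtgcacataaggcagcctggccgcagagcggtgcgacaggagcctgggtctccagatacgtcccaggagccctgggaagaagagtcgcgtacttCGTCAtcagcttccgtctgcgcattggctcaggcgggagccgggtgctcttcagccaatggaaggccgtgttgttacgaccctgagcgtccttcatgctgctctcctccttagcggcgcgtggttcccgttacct
*Entpd1*, second start (chr19:40659520-40659769, plus strand): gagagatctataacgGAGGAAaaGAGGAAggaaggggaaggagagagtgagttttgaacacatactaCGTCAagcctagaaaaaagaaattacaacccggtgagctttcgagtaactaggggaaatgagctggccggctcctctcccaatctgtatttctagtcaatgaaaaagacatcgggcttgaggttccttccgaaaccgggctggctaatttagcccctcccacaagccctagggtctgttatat
*Adora3* (chr3:105904171-105904420, plus strand): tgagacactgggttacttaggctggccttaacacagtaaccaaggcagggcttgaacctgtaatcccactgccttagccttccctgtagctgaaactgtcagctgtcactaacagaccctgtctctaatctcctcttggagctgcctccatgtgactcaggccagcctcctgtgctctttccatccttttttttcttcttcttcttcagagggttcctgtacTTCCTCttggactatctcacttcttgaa
*P2rx4* (chr5:122707294-122707543, plus strand): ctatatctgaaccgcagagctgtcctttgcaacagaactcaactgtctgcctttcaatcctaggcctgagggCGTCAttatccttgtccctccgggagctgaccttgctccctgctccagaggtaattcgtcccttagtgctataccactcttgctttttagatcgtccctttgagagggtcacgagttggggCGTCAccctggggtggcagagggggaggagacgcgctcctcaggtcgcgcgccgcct

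The capitals mark matches, on either strand, to 5 motifs chosen after the values were known. The palindrome TTCNNNGAA, bound by STAT factors, which act downstream of the G-CSF and GM-CSF receptors, was present upstream of *Ada* (bases -90 to -82) and in no other window, and 7.0% of all 32817 promoter windows of this length hold it. TGACG, a core sequence of the cAMP response element, occurred in both *Entpd1* windows and at 2 places upstream of *P2rx4*, and in 17.7% of all windows. GAGGAA, the core bound by the myeloid factor PU.1, was found upstream of *Adora3* and at the second *Entpd1* start (23.3% of all windows). GGGCGG, the Sp1 box, was found in 7 of the 12 windows (32.7% of all windows), among them those of *Ada*, *Adora2b* and *Nt5e*. Matches overlap in the *Nt5e* window only. TTGCGNAA, a C/EBP site, was found upstream of *Pnp* (0.7% of all windows). A match describes these letters only, and no binding was measured.

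**Figure D3:**
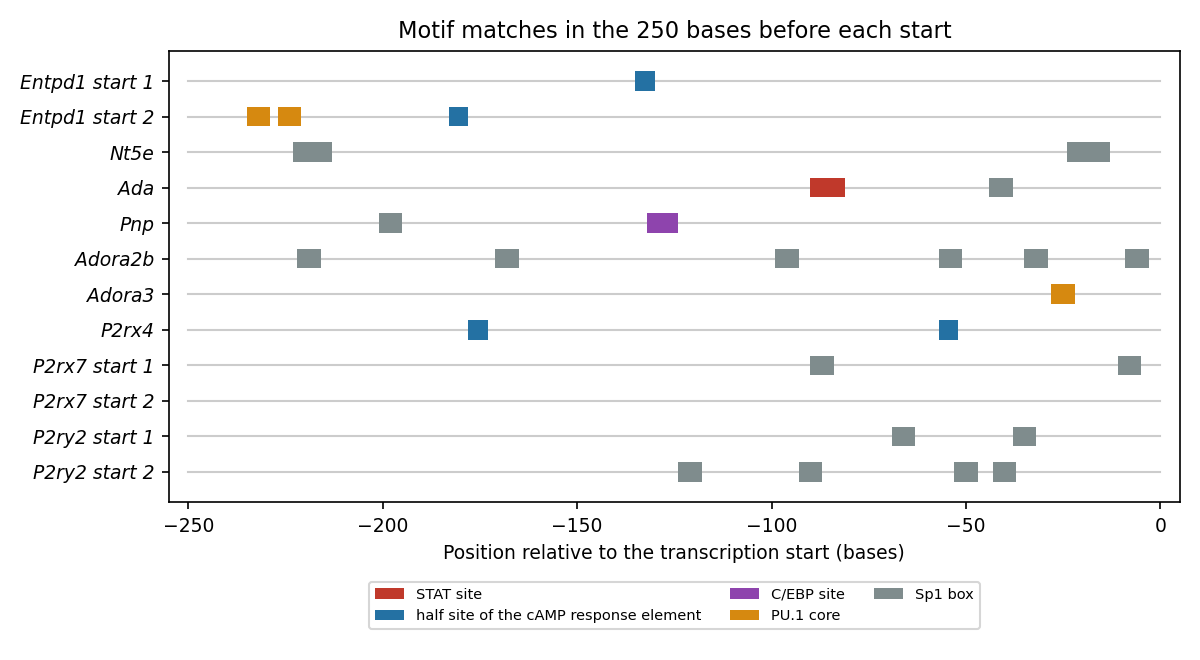
Motif matches (coloured boxes) in the 250 bases before each of the 12 RefSeq start sites of 9 of the genes, drawn to scale by distance from the start in bases. *Adora2a* had no start site and was not searched. The STAT motif appears once, upstream of *Ada*, the cAMP motif upstream of *Entpd1* and *P2rx4*, and the second *P2rx7* start has no match.

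*Entpd1* lies on chromosome 19 (GRCm38, 40612366 to 40741602, plus strand), and its annotated RefSeq transcripts have 10 exons. It stood at 18.03 and 17.38 FPKM in Control and at 10.98 and 10.92 FPKM with G-CSF. Both G-CSF libraries were below both Control libraries, and replicates differed little. The log2 fold change was -0.69 (SE 0.0653, adjusted p = 0.00301, limma). *Nt5e*, on the plus strand of chromosome 9 (88327197 to 88372092) with 9 exons, stood at 31.3 and 33.9 FPKM in Control and at 20.2 and 20.4 FPKM with G-CSF. Again the G-CSF libraries were close to each other and below Control, with a log2 fold change of -0.68 (SE 0.0609, adjusted p = 0.00269, limma). These 2 genes were among those with the smallest p-values, since 0.777% of all genes tested had a smaller p than *Entpd1* and 0.618% a smaller p than *Nt5e*. No 75-base window of either gene's transcripts occurs in another annotated gene. *Nt5e* had more FPKM than *Entpd1* in every library, by 1.74 and 1.95 times in Control and 1.84 and 1.87 times with G-CSF, so the ratio of the groups overlapped while both levels were lower.

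*Ada* lies on the minus strand of chromosome 2 (163726584 to 163750239, 12 exons). Its level was 8.14 and 7.69 FPKM in Control and 16.6 and 15.1 FPKM with G-CSF, on 161, 162, 306 and 350 estimated reads. Both G-CSF values were well above Control, and the gap between the groups was larger than any difference between replicates. The log2 fold change was 0.99 (SE 0.0823, 95% interval 0.79 to 1.19, adjusted p = 0.00222, limma), and 0.46% of all genes tested had a smaller p. The fold change over 2 was reached when Control replicate 1 (1.03) or G-CSF replicate 2 (1.06) was left out. *Pnp*, which acts on the inosine that *Ada* forms, was the most abundant of the 10 genes. It stood at 70.2 and 70.3 FPKM in Control and at 74.97 and 73.38 FPKM with G-CSF. Its values were slightly above Control, but the log2 fold change of 0.08 did not pass (95% interval -0.02 to 0.18, adjusted p = 0.227, limma). Of the 75-base windows of annotated *Pnp* transcripts, 17.0% also occur in another gene, mainly the overlapping *Gm49342*, so its value is less certain. The neighbouring *Pnp2* stood at 5.07 and 5.97 FPKM in Control and at 4.51 and 4.22 FPKM with G-CSF (log2 fold change -0.33, adjusted p = 0.0899, limma).

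The opposite directions of *Ada* and of *Entpd1* and *Nt5e* appear in the ratios of their FPKM within a library, which do not depend on the scaling between libraries. *Ada* stood at 0.26 and 0.227 of the *Nt5e* level in Control and at 0.823 and 0.738 of it with G-CSF. Against *Entpd1*, *Ada* was at 0.451 and 0.443 in Control and at 1.51 and 1.38 with G-CSF, so the order of these 2 genes was exchanged. *Pnp* exceeded *Ada* by 8.62 and 9.14 times in Control and by 4.51 and 4.87 times with G-CSF. The ratios were chosen with the differences already known and were not tested.

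**Figure D4:**
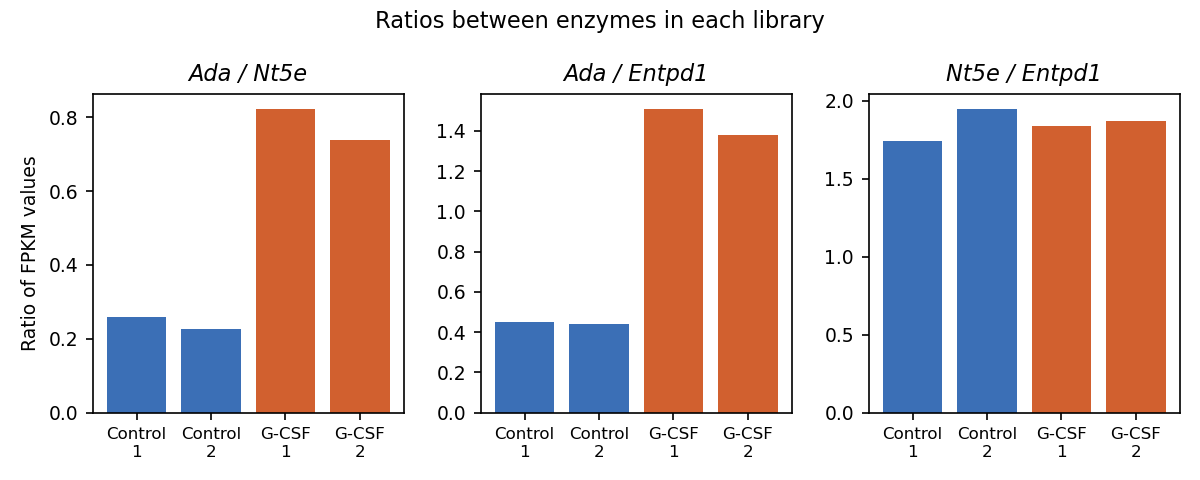
Ratio of FPKM values between enzymes in each library (bars start at 0; blue Control, orange G-CSF). *Ada* over *Nt5e* and *Ada* over *Entpd1* are higher in both G-CSF libraries, whereas *Nt5e* over *Entpd1* lies between 1.74 and 1.95 in all 4.

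Among the adenosine receptors, *Adora2b* was by far the most abundant. The products of *Adora2a* and *Adora2b* raise cAMP through Gs, and that of *Adora3* lowers it through Gi. *Adora2b*, on chromosome 11 (62248984 to 62266453, plus strand, 2 exons), made up 76.1% and 80.2% of the summed FPKM of the 4 adenosine receptor genes in Control and 80.3% and 81.9% with G-CSF. Its level was 34.1 and 41.1 FPKM in Control and 26.6 and 33.3 FPKM with G-CSF. The G-CSF values were lower, but replicate 1 was below replicate 2 in both groups and the higher G-CSF value came close to the lower Control value. The log2 fold change of -0.33 did not pass (95% interval -0.63 to -0.03, adjusted p = 0.103, limma), but it did without G-CSF replicate 2 (-0.49, adjusted p = 0.0311).

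*Adora3*, known in mice mainly from mast cells and eosinophils, stood at 8.14 and 7.62 FPKM in Control and at 4.68 and 5.68 FPKM with G-CSF. Both G-CSF values were lower, with the wider spread in that group, and the log2 fold change was -0.60 (SE 0.118, adjusted p = 0.0159, limma). It no longer passed without Control replicate 1 (adjusted p = 0.0565) or without G-CSF replicate 1 (adjusted p = 0.0502). *Adora3* lies on chromosome 3 (105870858 to 105908926, plus strand) and overlaps *Tmigd3*, with which it shares exons, and 17.5% of its windows occur in another gene. *Tmigd3* was at 0.188 to 0.769 FPKM, on at most 8 estimated reads, and was not tested. *Adora2a*, on chromosome 10 (75316877 to 75334784, plus strand, 3 exons), was the lowest of the 10 genes. It stood at 2.52 and 2.53 FPKM in Control and at 1.88 and 1.68 FPKM with G-CSF, on 56 to 86 estimated reads. The G-CSF values were lower, with a log2 fold change of -0.48 (SE 0.141) at an adjusted p of 0.0496 (limma), just under the threshold. With any 1 library left out it did not pass, with adjusted p-values from 0.0941 (without G-CSF replicate 1) to 0.173 (without G-CSF replicate 2). The remaining family member, *Adora1*, was at 0.034 FPKM or less in Control and listed at 0 with G-CSF. Summed over the 4 receptor genes, the level was 44.7 and 51.3 FPKM in Control and 33.2 and 40.6 FPKM with G-CSF.

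Of the ATP receptors, *P2rx4* was the most abundant and was the member of these that fell. It encodes an ATP-gated cation channel found largely in endosomes and lysosomes, and lies on chromosome 5 (122707544 to 122729738, plus strand), next to *P2rx7*. *P2rx4* stood at 41.9 and 41.0 FPKM in Control and at 29.8 and 33.4 FPKM with G-CSF. Both G-CSF libraries were below Control, with a log2 fold change of -0.39 (SE 0.0662, adjusted p = 0.0108, limma). *P2rx7*, the channel that needs high ATP and triggers the release of interleukin-1β, lies on chromosome 5 (122643911 to 122691432, plus strand). It stood at 7.67 and 6.57 FPKM in Control and at 5.91 and 6.10 FPKM with G-CSF. The G-CSF values were lower, but the Control libraries differed more from each other than the nearest values of the groups did, and the log2 fold change of -0.24 did not pass (95% interval -0.49 to 0.02, adjusted p = 0.148, limma). *P2rx4* was above *P2rx7* by 5.46 and 6.23 times in Control and by 5.04 and 5.47 times with G-CSF. *P2ry2*, a Gq-coupled receptor for ATP and UTP by which phagocytes sense dying cells, lies on chromosome 7 (100996568 to 101012866, minus strand). It was the gene of the 10 with overlapping groups, at 7.67 and 7.07 FPKM in Control and 7.67 and 7.81 FPKM with G-CSF (log2 fold change 0.07, 95% interval -0.14 to 0.28, adjusted p = 0.597, limma).

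In order of level in Control, the means were 70.3 FPKM for *Pnp*, 41.4 for *P2rx4*, 37.6 for *Adora2b*, 32.6 for *Nt5e*, 17.7 for *Entpd1*, 7.92 for *Ada*, 7.88 for *Adora3*, 7.37 for *P2ry2*, 7.12 for *P2rx7* and 2.53 for *Adora2a* (FPKM, n = 2 each). The SDs over the libraries were between 0.00495 (*Adora2a*) and 5.0 FPKM (*Adora2b*). Neighbours whose Control values overlapped were *P2rx4* and *Adora2b*, and each neighbouring pair from *Ada* to *P2rx7*, and the means of *Adora2b* and *Nt5e* differed by no more than the SD of *Adora2b*. With G-CSF, *Ada* at 15.8 ± 1.09 FPKM (SD, n = 2) stood above *Entpd1* at 11 ± 0.0445 FPKM (SD, n = 2) and apart from the other 3 genes of that group, which were at 5.18 to 7.74 FPKM.

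The other genes of the pathway were followed in 8 lists written from general knowledge. Without the 10 genes above, 77 of these genes were tested, of which 9 were higher and 12 lower at an adjusted p of 0.05 (27.3%, against 24.1% of all genes). Together with the members, the ectoenzyme list had 4 of 12 genes higher and 3 lower. *Entpd1* moved apart from its relatives, since *Entpd6* rose (log2 fold change 0.39, adjusted p = 0.0195, limma), *Entpd3* rose from a low level (0.230 and 0.304 to 0.940 and 0.631 FPKM), *Entpd5* and *Entpd7* had log2 fold changes of -0.02 and 0.03 that did not pass, and *Entpd2* was at 0.082 FPKM or less. *Entpd4* and *Entpd8* were listed at 0 in every library. In the list of adenosine and nucleoside removal, 3 of 15 genes were higher and 2 lower. Beside *Ada*, *Ahcy*, which hydrolyses S-adenosylhomocysteine to adenosine and homocysteine, rose (0.54, adjusted p = 0.00517, limma), and *Hprt*, which salvages the bases left by *Pnp*, rose (0.27, adjusted p = 0.0143, limma). *Dpp4*, whose product binds adenosine deaminase on the surface of human cells, fell (-0.66, adjusted p = 0.0407, limma), as did the lysosomal nucleoside transporter *Slc29a3* (-0.31, adjusted p = 0.031, limma). *Adk*, the kinase that competes with *Ada* for adenosine inside cells, did not pass (0.28, adjusted p = 0.0503, limma). Of 10 intracellular nucleotidases and AMP deaminases, *Nt5dc2* rose (0.44, adjusted p = 0.00629, limma), and *Nt5c2*, which acts on IMP and GMP, and the AMP deaminase gene *Ampd3* fell by 0.25 and 0.23 on the log2 scale (adjusted p = 0.0459 and 0.033, limma).

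The genes of the P2X and P2Y lists that passed were all lower with G-CSF, where the share of P2Y genes that passed (28.6%) was near the 24.1% of all genes that passed in either direction (11.5% lower). Of 4 P2X genes tested, 2 fell, *P2rx4* and *P2rx5*, the latter from 10.04 and 8.91 to 6.02 and 3.97 FPKM (log2 fold change -0.94, adjusted p = 0.0175, limma). *P2rx1* was at 5.44 to 8.15 FPKM and did not pass (adjusted p = 0.187, limma), and *P2rx2*, *P2rx3* and *P2rx6* were below the filter. Of 7 P2Y genes tested, 2 fell, *P2ry1*, a receptor for ADP (-0.50, adjusted p = 0.0182, limma), and *P2ry10* (-0.95, adjusted p = 0.0074, limma), a receptor for lysophospholipids named with this family. The most abundant P2Y gene was *P2ry14*, a receptor for UDP-glucose, at 91.0 and 101.6 FPKM in Control and 83.6 and 87.8 FPKM with G-CSF (adjusted p = 0.102, limma). *P2ry6*, *P2ry12* and *P2ry13* did not pass, and *P2ry4* was listed at 0.

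**Figure D5:**
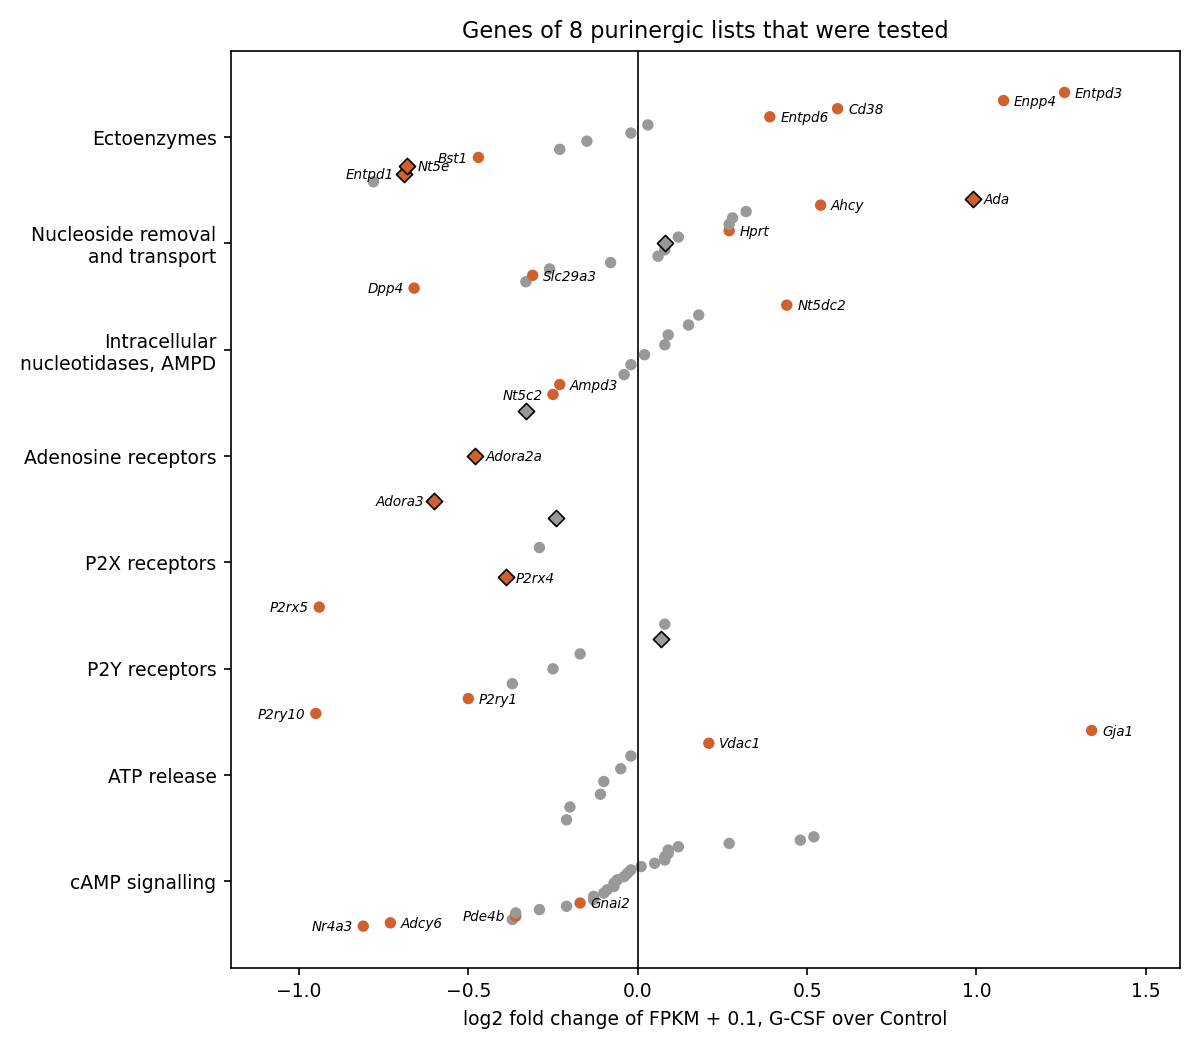
Log2 fold change of FPKM + 0.1 (G-CSF over Control) of each gene tested in 8 purinergic lists, one row of points per list. Diamonds are the 10 genes described here, circles other genes, and orange marks an adjusted p under 0.05. The receptor lists hold orange points only on the left, and *Ada* (0.99) lies on the right with *Entpd3* (1.26), *Enpp4* (1.08) and *Gja1* (1.34).

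Marker genes of several cell types were lower with G-CSF in the same libraries in which 5 of the 10 genes were lower. Genes counted as lower or higher had an adjusted p under 0.05 (limma). Over all genes tested, 11.5% were lower and 12.6% higher by that measure, and several of the lists are short. Of the dendritic cell list (8 genes), 6 fell, and the summed level was 2761.1 to 3226.5 FPKM in Control and 1449.3 to 1802.3 FPKM with G-CSF. That sum was mostly *Cd74*, *H2-Aa* and *H2-Ab1*, and *Flt3* and *Ccr7* did not pass (adjusted p = 0.22 and 0.0748, limma). The mast cell or basophil list fell in 5 of 6 genes tested, with sums of 135 to 138 and 84.7 to 94.5 FPKM, and *Tpsb2* and *Cma1* were listed at 0 in 3 of the 4 libraries. For eosinophils, 2 of 5 genes tested fell (379 to 518 and 288 to 323 FPKM). Most of that sum was *Prg2*, which fell, and *Ear2*, which did not pass (adjusted p = 0.3, limma). *Ccr3* and *Il5ra* were at 0.253 FPKM or less and were not tested. For macrophages, 5 of 8 fell (542 to 567 and 443 to 461 FPKM), and for neutrophils 6 of 7 (65715.8 to 76180.3 and 50770.7 to 50806.9 FPKM). *Ly6g*, whose product marks polymorphonuclear MDSCs in the study, was not among the genes measured, so it could not be read. The neutrophil sum was mostly *S100a8*, which did not pass (adjusted p = 0.0855, limma), and *S100a9*. The monocyte list had 1 gene higher and 1 lower of 6 (1431.3 to 1484.7 and 1311.8 to 1385.2 FPKM). Of 5 genes common to myeloid cells, 3 fell (2316.4 to 2341.6 and 1929.7 to 2065.1 FPKM). T or NK cell genes summed to 2.01 to 3.98 FPKM (2 of 3 lower, with *Ncr1* at 0), B cell genes to 3.75 to 5.51 FPKM (1 of 3 lower), and erythroid genes to 0.43 to 1.67 FPKM, below the filter. The stromal or endothelial genes summed to 20.1 to 25 FPKM, of which *Pecam1*, also expressed by myeloid cells, held 19.1 to 24.6 FPKM (1 of 2 higher and 1 lower, with *Col3a1* at 0). The part of these cells in the levels of the purinergic genes was not tested, and in whole cultures fewer cells of a type and less RNA per cell cannot be told apart. By flow cytometry, the study saw no effect of G-CSF on the percentages of dendritic cells and macrophages. Among CD11b+ cells, it saw a lower proportion of polymorphonuclear and a higher proportion of monocytic MDSCs. In cell numbers, it reported no change of polymorphonuclear and an increase of monocytic MDSCs.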

How the data were processed

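For each library, the authors deposited 1 table with a value per gene, taken here as FPKM. The unit was inferred from the values, since low values rise in steps that shrink with transcript length. The submitters' processing notes name TopHat2 2.0.13, Bowtie2 2.2.3, SAMtools 0.1.19, Cufflinks 2.2.1 and the build mm10, and the annotation is not given in the sources used here. Libraries were stranded and read over 75 bases from a single end. The study calls the replicates biological, and no source used here names the mice or cultures behind each, so p-values measure the spread between these libraries.

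Names were matched to GENCODE M21 (GRCm38, the assembly of mm10; 23965 of 24346 names). Depth was estimated from the steps worth a single read (66.3% of 1973 low values came within 0.05 of whole reads, and 10.0% would by chance), with transcripts shortened by 210 bases. Genes without a length (381) and small RNAs or very short genes (1308) were left out. A gene was tested where 2 libraries held 10 or more estimated reads and the 4 together 15 or more. The test was limma 3.58.1 (R 4.3.3, lmFit and eBayes with trend, two-sided) on log2(FPKM + 0.1), without a replicate block, with Benjamini-Hochberg adjustment across the tested genes. Calls are adjusted p-values under 0.05, and those with a fold change over 2, the limit of the study, are counted separately. The pseudocount draws low genes toward 0, and libraries count alike whatever their depth.

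The members, though listed by symbol, the gene lists and the tests were chosen with earlier results of these data known. Named genes are the members, their family relatives and genes that overlap them and, per list, at most 4 further genes that passed, by smallest p. *Adk*, *Acpp*, *Adcy7* and *Panx1*, which did not pass, were added after their values were seen. Results were recomputed with other scalings, filters and pseudocounts, with limma's voom on estimated reads, with a replicate block and without each library.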

Additional observations from a re-analysis of the deposited data

How the results depend on the processing

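All 10 genes kept the direction of their log2 fold change under each of the 13 alternatives. *Entpd1* (-0.71 to -0.65), *Nt5e* (-0.74 to -0.62), *Ada* (0.92 to 1.06) and *P2rx4* (-0.47 to -0.31) passed an adjusted p of 0.05 in all 13, *Adora3* in 11, *Adora2a* in 5 and *Adora2b* in 2, and *Pnp*, *P2rx7* and *P2ry2* in none. The number of the 10 that passed was 4 to 6 with each library left out. The number that also passed a fold change over 2 was 0 and became 1 (*Ada*) with voom, and 0 to 1 with each library left out. Over all genes, 2880 passed an adjusted p of 0.05, against 1530 to 1911 with each library left out, and 171 passed with a fold change over 2, against 57 with a pseudocount of 1 FPKM. Of the other pathway genes, 21 passed, against 11 to 14 with each library left out. Leaving out a library leaves 1 in its group, which is then assumed to vary like the other group.

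The replicate numbers of the labels name no shared mouse or day, and the deviations of same-numbered libraries correlated with r = 0.265 across genes. With the replicate number as a block, 4009 of all genes, 7 of the 10 and 30 of the other pathway genes passed, and *Adora2b* was gained (adjusted p = 0.00247, limma). *Adora2a* also missed the threshold with a filter of 0.5 FPKM (adjusted p = 0.0545), no filter (0.103), a pseudocount of 0.01 FPKM (0.0511) and voom (0.0656). At 56 to 86 estimated reads per library, it is the gene of the 10 with the least depth behind its values.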

Other observations

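Surface enzymes that use NAD+ moved in opposite directions. *Cd38*, an ADP-ribosyl cyclase that is also a source of adenosine through AMP, rose from 14.8 and 13.1 FPKM in Control to 22.2 and 19.8 FPKM with G-CSF (log2 fold change 0.59, adjusted p = 0.00825, limma). *Bst1*, its neighbour in the family (CD157), fell from 114.1 and 109.7 to 76.8 and 85.1 FPKM (-0.47, adjusted p = 0.00539, limma). *Enpp4*, which hydrolyses diadenosine triphosphate, rose from 0.875 and 0.599 to 1.85 and 1.47 FPKM (1.08, adjusted p = 0.0211, limma). The prostatic acid phosphatase gene *Acpp*, whose product can also form adenosine from AMP, stood above *Nt5e* in every library. Its level was 33.4 and 41.5 FPKM in Control and 28.5 and 35.1 FPKM with G-CSF. The groups of *Acpp* overlapped (-0.23, adjusted p = 0.229, limma). Between libraries of the same replicate number, *Acpp* was lower with G-CSF, and a fit blocked on that number called it lower (adjusted p = 0.00949, limma).

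In the list of cAMP signalling, 4 of 28 genes tested passed an adjusted p of 0.05 (limma), and these 4 were lower with G-CSF. That is 14.3% of the list, a smaller share than the 24.1% of all genes tested that passed. They were *Adcy6*, an adenylyl cyclase (6.17 and 4.97 to 3.616 and 3.002 FPKM, log2 fold change -0.73), *Nr4a3*, a nuclear receptor induced by cAMP (17.5 and 13.9 to 11.01 and 7.12 FPKM, -0.81), *Pde4b* (-0.36) and *Gnai2* (-0.17). The most abundant adenylyl cyclase gene of the list, *Adcy7*, had 44.3 and 44.3 FPKM in Control and 43.95 and 43.1 FPKM with G-CSF (-0.03, adjusted p = 0.717, limma). Of 8 genes of ATP release tested, *Gja1* (0.592 and 0.681 to 1.61 and 1.94 FPKM, 1.34, adjusted p = 0.00702) and *Vdac1* (0.21, adjusted p = 0.0149) rose (limma), while *Panx1*, an ATP release channel of leukocytes, stood at 15.4 to 17.0 FPKM with overlapping groups.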
